A study of Mus musculus with 8 samples.

Results

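The proteasome subunit genes of the mouse medial prefrontal cortex are described here across 8 samples, 4 taken after contextual fear conditioning and 4 after exposure to the context alone. They were chosen by symbol, as the rows that begin with Psma, Psmb, Psmc, Psmd or Psme followed by a digit, which gave 44 of the 22609 rows. Of these, 19 encode subunits of the core particle, 17 subunits of the regulatory particle, 3 chaperones that help to build the base of the regulatory particle and 4 alternative activators. The remaining row, Psmc3ip, carries a like symbol but encodes a cofactor of DNA recombination and is no subunit. All mice were of the strain B6.SJL, were 3 months old and were killed 1 h after training, and the sample was the anterior cingulate part of the medial prefrontal cortex from both hemispheres. Conditioned mice had 3 min in the chamber, 2 unsignalled foot shocks of 0.8 mA lasting 2 s with 30 s between them, and a further 15 s in the chamber. Context controls went through the same procedure without a shock, and the replicates of a group are described as biological.

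The proteasome is the main protease of the cytosol and nucleus and breaks down proteins that carry a chain of ubiquitin. Its core particle is a barrel of alpha and beta subunits, with the catalytic sites on the inner beta rings, and its regulatory particle caps the barrel, binds and removes ubiquitin, and unfolds the substrate with a ring of ATPases. In neurons, protein breakdown by the proteasome at synapses is known as a part of synaptic plasticity and of memory storage. Interferon replaces the 3 constitutive catalytic subunits by inducible ones in immune and glial cells, which forms the immunoproteasome.

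Recovered gene reads per sample ranged from 1992452 to 3565356, and values below are gene reads scaled by a factor per sample, with no correction for gene length. Lists of values give replicates 1 to 4 in that order, and means are given with their SD. The tissue was checked against its markers. Each of 10 neuronal markers and 8 cortical layer markers was detected, with summed levels of 15290 to 19520 and of 1792 to 2511 per sample. Of 6 blood cell markers, 2, Hba-a1 and Hba-a2, were listed at 0 in all 8 samples, and the summed level of the list was 85.95 to 147.2 in controls and 36.46 to 100.8 after conditioning. The glial, vascular, meningeal and choroid plexus markers lay lower after conditioning in 63 of 64 tested cases, against 7092 of all 14704 genes. Of these markers 0 passed the threshold. The summed levels of the microglial and vascular lists are given beside the antigen processing genes. Astrocyte sums were 15500 to 21140 in controls and 16020 to 17270 after conditioning, oligodendrocyte sums 2657 to 10750 and 2876 to 4800, and oligodendrocyte precursor sums 912 to 1323 and 764 to 1049. Meningeal sums were 502 to 1078 and 247 to 791, and choroid plexus sums 29.1 to 82.7 and 19.3 to 60.4. Context control replicate 3 had the highest sum of the 8 samples in each of these glial, vascular, meningeal and choroid plexus lists. For the oligodendrocyte list it stood at 10750, against 2657 to 4995 in the other controls. No change of these markers was called, and in bulk samples fewer cells of a type and less RNA per cell cannot be told apart.

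The start regions of the members were examined for short motifs, since proteasome genes are known to be transcribed in concert. RefSeq windows of 250 bases before to 50 after the start (build GRCm38.p6) were matched by symbol for 37 of the 44 members, 40 windows in all, and 13 motifs were searched on both strands. The most frequent relative to all windows was CCGGAAG, the core of the element bound by ETS factors. It stood in 14 of 40 windows of members (35%) and in 8.86% of all 32851 windows. The 14 windows belonged to 13 genes, of which Psmc3ip is no subunit and Psmc2 was counted more than once. GGGCGG, the GC box bound by Sp factors, stood in 57.5% and 35.7%. TGACNNNGC, the core of the antioxidant response element bound by Nfe2l1, the factor known to raise proteasome genes when proteasome activity falls, stood in 15% of the windows of members and in 12.4% of all windows, and CCAAT in 37.5% and 37.4%. The motif GGAAGTG, which can overlap the ETS core, stood in 20% and 11%, and no window of a member held the cyclic AMP element TGACGTCA (1.79% of all windows). A match is a description of the letters and not evidence of a bound site. The 100 bases before the start are printed for the constitutive catalytic subunit genes that hold TGACNNNGC. They are also printed for some, not all, of the members of the base, the lid and the activators that hold CCGGAAG. The motif is in capitals, on whichever strand it stood.
Psmb5 (chr14:54617996-54618095, minus strand): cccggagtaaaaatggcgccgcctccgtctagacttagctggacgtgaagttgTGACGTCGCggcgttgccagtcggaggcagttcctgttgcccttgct
Psmb6 (chr11:70525257-70525356, plus strand): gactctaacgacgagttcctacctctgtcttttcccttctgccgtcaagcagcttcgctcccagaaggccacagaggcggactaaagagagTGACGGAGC
Psmc1 (chr12:100110102-100110201, plus strand): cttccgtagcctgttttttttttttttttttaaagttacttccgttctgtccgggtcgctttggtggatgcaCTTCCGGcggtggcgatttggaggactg
Psmd2 (chr16:20651552-20651651, plus strand): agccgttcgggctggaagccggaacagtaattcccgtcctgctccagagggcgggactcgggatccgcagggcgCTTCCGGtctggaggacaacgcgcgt
Psmd6 (chr14:14120946-14121045, minus strand): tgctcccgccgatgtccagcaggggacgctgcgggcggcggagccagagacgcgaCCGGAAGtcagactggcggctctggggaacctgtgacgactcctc
Psme4 (chr11:30771675-30771774, plus strand): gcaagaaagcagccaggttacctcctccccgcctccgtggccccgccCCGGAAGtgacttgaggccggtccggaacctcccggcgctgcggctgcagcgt

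For the comparison of levels between genes, values were divided by the exon length of the GENCODE vM21 basic annotation. In context controls, the median level per kilobase was 205.9 scaled reads over the 14 tested constitutive core subunits and 222 over the 17 subunits of the regulatory particle. The 6 ATPases of the base, which form its unfolding ring in equal numbers, lay within 190.3 (Psmc6) to 465 (Psmc5) per kilobase. The catalytic subunits Psmb5, Psmb6 and Psmb7 stood at 192 ± 53.8, 258 ± 46.6 and 398 ± 79.3 per kilobase (SD, n = 4). The inducible Psmb8, Psmb9 and Psmb10 stood at 4.88 ± 2.09, 2.89 ± 2.92 and 37.8 ± 14.9 per kilobase. Psma8, the alpha subunit of male germ cells, and Psmb11, the catalytic subunit of the thymic cortex, had 6 and 8 reads over all 8 samples. Psme3, the nuclear activator, stood highest among the activators at 228 ± 28.2 per kilobase, against 128 ± 21.0 for Psme1 and 34.3 ± 9.12 for Psme2. These levels depend on the annotated length. Psmb1 stood at 129 per kilobase of merged exons and at 224 per kilobase of its longest coding transcript.

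**Figure D1:**
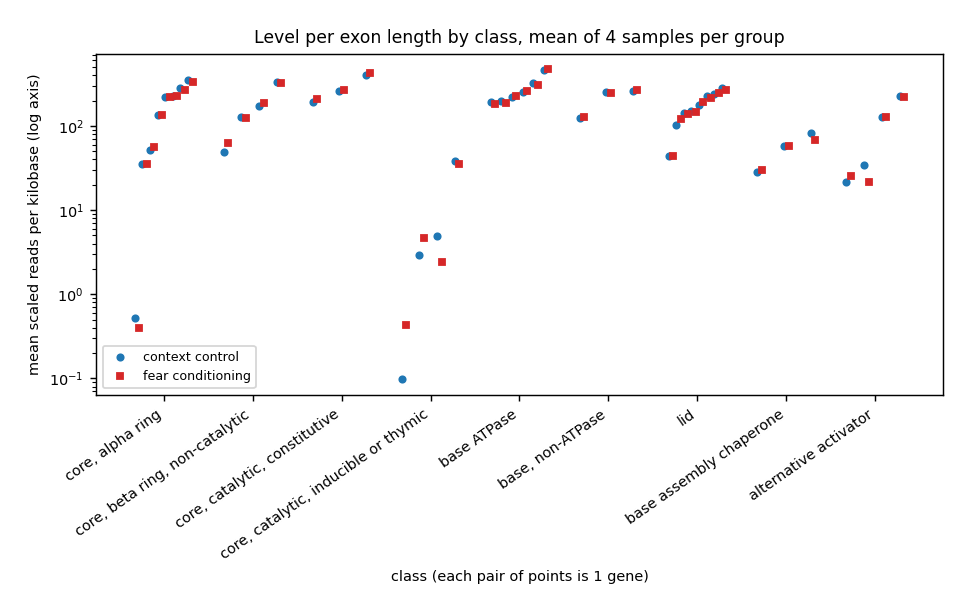
Mean scaled reads per kilobase of exon length (log axis) for each of the 43 proteasome genes by class, with circles for context controls and squares for fear conditioning (means of 4 samples, no error bars). Psma8, Psmb8, Psmb9 and Psmb11 lie far below the other core subunits, Psmb10 lies near the lowest constitutive ones (Psma3, Psmb3 and Psma5), and the points of a pair lie close together for most genes, with the widest gaps at Psmb11, Psmb8, Psmb9 and Psme2.

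Fear conditioning was compared with context control to ask whether the cortex changed its proteasome transcripts 1 h after training. No member passed the threshold in limma, with 0 of 43 tested, against 0% of the 14704 genes tested. The median log2 change of the members was -0.01, with 19 higher and 24 lower, and that of all tested genes was 0.01, with 7612 higher and 7092 lower. Where the mean value was 100 or more, 13 of 34 members lay higher and 21 lower (median -0.02). Of all 6532 genes of that level, 3951 lay higher and 2581 lower (median 0.04). This difference in direction was not tested. At an unadjusted p under 0.05 there were 0 members in limma, edgeR and DESeq2, against 2.7%, 2.62% and 2.31% of all genes (397, 385 and 340 genes, with 0 past the adjusted threshold by each tool). The groups overlapped for all 43 members, and they did not overlap for 1.92% of all genes (0.979% with conditioned samples higher and 0.939% with them lower). The tested members without Psmc3ip took 0.393% ± 0.0306 of the gene reads in controls, against 0.379% ± 0.0244 in conditioned samples (SD, n = 4).

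The 95% confidence interval of the log2 change lay wholly between -0.5 and 0.5 for 24 of the 43 members, which held for 18.6% of all tested genes. It lay between -1 and 1 for 35 members and 61.5% of all genes. Where the mean value was 100 or more, 24 of 34 members (70.6%) and 41% of 6532 genes lay between -0.5 and 0.5. These intervals are not adjusted for the number of genes. The plot of changes by class shows narrow intervals for most of the regulatory particle, with Psmd3 as the widest, beside the wide ones of the inducible subunits.

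**Figure D2:**
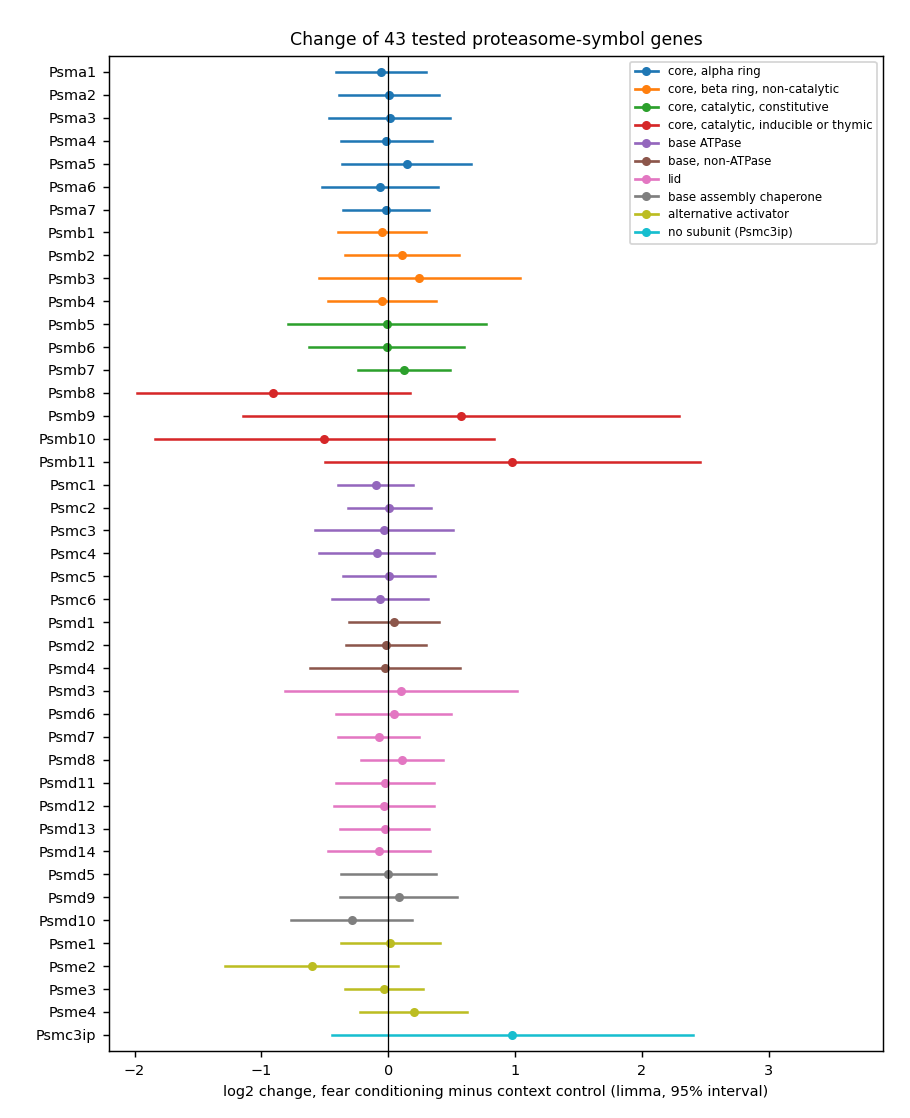
Log2 change after fear conditioning relative to context control for the 43 tested members (points) with limma's 95% confidence interval (lines), coloured by class. Every interval spans 0, and the changes of the 17 genes of the regulatory particle lie between -0.10 and 0.11.

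In the core particle, 8 of 18 tested genes lay higher and 10 lower, with a median log2 change of -0.01. The 7 tested alpha subunits, which form the outer rings and the gate of the barrel, changed by -0.07 to 0.15. Psma5 had the smallest p among them and read 61.5, 48.3, 60.5 and 85.3 in context controls and 64.9, 74.3, 75.2 and 64.3 after conditioning. Its highest sample was a control, its lowest was also a control, and the conditioned samples lay between them (log2 change 0.15, 95% interval -0.36 to 0.66). Psma1 read 321, 290.1, 367 and 414 in controls and 289, 305, 365 and 375 after conditioning (log2 change -0.06, interval -0.41 to 0.30). The groups overlapped. Psma8, the germ cell subunit, had a mean below 1 and was not tested, with 4 reads in controls and 2 after conditioning.

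Among the 4 beta subunits without a catalytic site, changes lay between -0.05 and 0.25. Psmb3 read 45.7, 44.3, 23.2 and 38.6 in controls and 62.1, 69.0, 32.8 and 25.9 after conditioning. Conditioned replicates 1 and 2 lay above every control and conditioned replicate 4 lay below all controls but 1, so the change of 0.25 had an interval from -0.55 to 1.04. Psmb2 read 178, 145, 125 and 143 in controls and 178, 204, 146 and 118 after conditioning, a change of 0.11 (interval -0.34 to 0.56).

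The 3 constitutive catalytic subunits were followed in each sample. Psmb5, the chymotrypsin-like subunit and the main target of proteasome inhibitors, read 200.2, 223, 115 and 153 in controls and 251, 249, 169 and 72.0 after conditioning. Psmb6, the caspase-like subunit, read 208, 244, 155 and 216 in controls and 276, 289, 189 and 109 after conditioning. For both genes the highest samples were conditioned replicates 1 and 2, the lowest was conditioned replicate 4, and the controls lay between. The log2 change was -0.01 for each, with intervals from -0.79 to 0.77 for Psmb5 and from -0.62 to 0.60 for Psmb6. Psmb7, the trypsin-like subunit, read 409, 384, 461 and 591 in controls and 447, 483, 592 and 475 after conditioning. Its spread was narrower, and its change was 0.13 (interval -0.24 to 0.49).

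Of the inducible catalytic subunits, Psmb8 and Psmb9 were rare and Psmb10 was not. Psmb8, which takes the place of Psmb5, read 7.47, 5.37, 6.05 and 12.9 in controls and 6.90, 3.98, 2.73 and 1.92 after conditioning. These values rest on 27 reads in controls (exact Poisson 95% interval 17.8 to 39.3, which covers counting error only) and 12 after conditioning (6.20 to 21.0). The conditioned samples were mostly the lower ones, but replicate 1 lay within the range of the controls, and the log2 change was -0.91 (interval -1.98 to 0.17, limma adjusted p = 0.9998, unadjusted p = 0.0917). Psmb9, which takes the place of Psmb6, read 0, 9.40, 3.03 and 3.22 in controls and 4.14, 15.9, 4.10 and 0.959 after conditioning, on 12 and 19 reads. Psmb10, which takes the place of Psmb7, read 59.0, 72.5, 31.3 and 35.4 in controls and 64.9, 91.5, 23.2 and 7.68 after conditioning. Its conditioned samples held both the highest and the lowest value of the 8, and its change of -0.50 had an interval from -1.84 to 0.83. With single samples left out it lay between -0.99 (without fear conditioning replicate 2) and 0.15 (without fear conditioning replicate 4), and it was -0.12 in edgeR, -0.10 in DESeq2 and -0.15 with array weights. Psmb11 read 1.66, 0, 0 and 0 in controls and 2.76, 2.65, 0 and 1.92 after conditioning (log2 change 0.98, interval -0.50 to 2.46). These values rest on 2 reads in controls and 6 after conditioning, too few for a statement on its level.

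The balance of each catalytic pair was compared as a log2 ratio of inducible to constitutive subunit, without division by length, which does not alter a difference between samples beyond the effect of the pseudocount. Psmb8 against Psmb5 had a mean log2 ratio of -4.30 ± 0.71 in controls and -5.20 ± 0.47 after conditioning (SD, n = 4), a difference of -0.90 that did not pass (exact permutation p = 0.114, adjusted p = 0.343 over the 3 ratios, two-sided). The ratio of Psmb9 to Psmb6 differed by 0.59 (exact permutation p = 0.6, adjusted p = 0.6) and that of Psmb10 to Psmb7 by -0.63 (exact permutation p = 0.514, adjusted p = 0.6). With 70 assignments of 8 samples the smallest p this test can give is 0.0286. The signs of the last 2 ratios each rested on 1 library. Without context control replicate 1, in which Psmb9 was at 0, the first of them was -0.0471, and without fear conditioning replicate 4 the other was 0.0014. Per exon length, the inducible gene made up 2.65% ± 1.35 of the Psmb8 and Psmb5 pair in controls and 1.18% ± 0.344 after conditioning, 1.06% ± 0.915 and 1.45% ± 1.17 of the Psmb9 and Psmb6 pair, and 9.08% ± 4.49 and 7.63% ± 6.23 of the Psmb10 and Psmb7 pair (SD, n = 4).

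**Figure D3:**
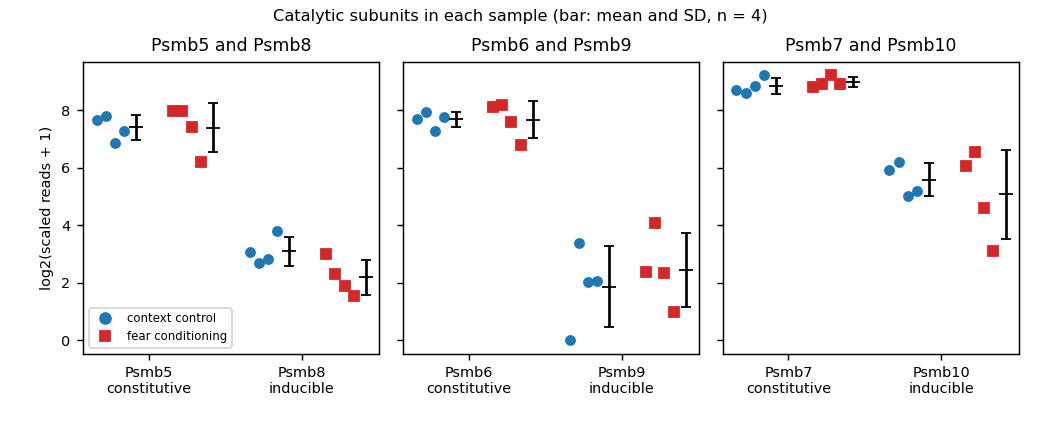
Level of the catalytic subunits, as log2(scaled reads + 1), in each context control (circles) and conditioned sample (squares), replicates 1 to 4 from left to right, with the mean and SD of 4 samples as black bars. Values are not divided by length, so heights compare samples of 1 gene and not genes, and Psmb8 is the inducible gene whose conditioned values lie mostly below the controls.

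Psmb8 and Psmb9 adjoin the peptide transporter genes Tap1 and Tap2 in the major histocompatibility complex, and all 4 are known targets of interferon. The list of antigen processing and interferon genes had 9 tested members, with 1 higher and 8 lower, a median log2 change of -0.17 and 0 past the threshold. The 1 higher gene was Tap1 (log2 change 0.10, interval -1.39 to 1.59). Tap2 changed by -0.08 (interval -1.18 to 1.01), and Psmb9 by 0.57 (interval -1.15 to 2.29). H2-K1, a class I heavy chain gene, read 21.6, 47.0, 42.4 and 49.9 in controls and 15.2, 38.5, 19.1 and 21.1 after conditioning (log2 change -0.77, interval -1.58 to 0.05). B2m, its light chain gene, read 267, 281, 366 and 365 in controls and 233, 265, 276 and 259 after conditioning (log2 change -0.29, interval -0.64 to 0.06). Both had conditioned samples within the range of the controls. Microglial markers lay lower in 11 of 12 cases, and their summed level ranged from 2064 to 2563 in controls and from 1860 to 2053 after conditioning. These sums did not overlap, by a narrow gap. Of the 12 single markers, 0 had groups without overlap, against 1.92% of all genes. Endothelial and mural markers lay lower in 12 of 12, with sums of 1606 to 2075 and 1223 to 1804. The part of either in the values of Psmb8 and of the antigen processing genes was not tested.

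In the regulatory particle, 6 of 17 genes lay higher and 11 lower, with changes between -0.10 and 0.11 and a median of -0.02. The 6 ATPases had a median of -0.05. Psmc1 had the smallest p among them and read 483, 508, 504 and 557 in controls and 501, 468, 536 and 419 after conditioning. The groups overlapped, and the change of -0.10 had an interval from -0.39 to 0.20. Psmc4 read 337, 265, 213 and 323 in controls and 286, 337, 261 and 190.0 after conditioning (change -0.09, interval -0.54 to 0.36).

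The large scaffold subunits of the base were those with the most reads among all members. Psmd1 read 748, 666, 846 and 958 in controls and 692, 734, 965 and 933 after conditioning, a change of 0.04 (interval -0.31 to 0.40). Psmd2, which docks shuttle proteins that deliver ubiquitinated substrates, read 673, 724, 693 and 898 in controls and 708, 749, 850 and 643 after conditioning, a change of -0.02 (interval -0.33 to 0.30). The groups overlapped for both genes. Psmd4, a ubiquitin receptor, changed by -0.02 (interval -0.61 to 0.57).

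Among the 8 lid genes the median change was -0.02, with 3 higher and 5 lower. Psmd14, the deubiquitinase that cleaves the ubiquitin chain off a substrate, read 297, 297, 388 and 399 in controls and 294, 256, 411 and 363 after conditioning. In each group replicates 1 and 2 were the lower samples, and the change was -0.07 (interval -0.47 to 0.33). Psmd7, its partner without a catalytic site, read 429, 458, 403 and 494 in controls and 414, 483, 441 and 359 after conditioning (change -0.08, interval -0.39 to 0.24). Psmd8, a structural lid subunit, read 409, 377, 331 and 459 in controls and 428, 434, 452 and 378 after conditioning (change 0.11, interval -0.21 to 0.43).

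Of the base assembly chaperones, Psmd10, also known as gankyrin, had the smallest p. It read 107, 99.4, 143 and 134 in controls and 73.2, 96.8, 102.5 and 126 after conditioning. Conditioned replicates 1 and 2 lay below every control and the other conditioned samples did not, and the change of -0.29 had an interval from -0.76 to 0.19 (limma adjusted p = 0.9998, unadjusted p = 0.217). Psmd9 read 72.3, 83.3, 60.5 and 77.3 in controls and 84.2, 87.5, 69.7 and 69.1 after conditioning, a change of 0.08. Psmd5 changed by 0.00 (interval -0.37 to 0.37).

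The alternative activators replace the regulatory particle on the barrel and open it without ATP. Psme2, the beta subunit of the interferon-inducible activator, had the smallest p of all members. It read 38.2, 21.5, 32.3 and 41.8 in controls and 20.7, 25.2, 17.8 and 21.1 after conditioning. Context control replicate 2 lay among the conditioned samples, and the other 3 controls lay above all of them. Its log2 change was -0.60 (interval -1.29 to 0.08, limma adjusted p = 0.9998, unadjusted p = 0.0785), with an unadjusted p of 0.053 in edgeR on 120 and 69 recovered reads. Its partner Psme1 read 126, 148, 121 and 172 in controls and 138, 149.9, 150.3 and 130.5 after conditioning, a change of 0.02 (interval -0.37 to 0.41). The pair assembles into a joint ring. The difference between the changes of the partners was not tested. The microglial sums and the other lower glial and vascular markers given above lay in the same direction as Psme2. The highest conditioned microglial sum (2053) lay just below the lowest control (2064), and no single microglial marker separated the groups. The part of these markers in the value of Psme2 was not tested.

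Psme3, the nuclear activator, read 580, 535, 601 and 711 in controls and 533, 557, 631 and 641 after conditioning (change -0.04, interval -0.34 to 0.27). Psme4, the large activator known to act on acetylated histones, read 135, 125, 173 and 132 in controls and 138, 137, 191 and 187 after conditioning. Its conditioned samples reached higher than the controls, with overlap at the lower end (change 0.20, interval -0.22 to 0.62). Psmc3ip, which is no subunit, had 15 reads in controls and 20 after conditioning and a change of 0.98 with an interval from -0.44 to 2.40.

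Close copies elsewhere in the transcriptome make some of these values uncertain, since reads that fit several genes can be lost or split. In GENCODE vM21, 59.3% of the 50-base stretches of the Psme2 transcript also stood in Psme2b. For Psmb5 57.1%, for Psmb3 55.8% and for Psma5 55.4% of the stretches stood in transcripts of other genes. For the other members with a transcript the share lay at or below 31.5%.

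The wider pathway gave no called gene either. Over 46 tested genes of 6 lists, 26 lay higher and 20 lower, 0 passed the threshold, and the median log2 change was 0.02. Core assembly chaperones had 2 higher and 3 lower of 5. Pomp, the chaperone that matures the beta rings, read 312, 314, 337 and 412 in controls and 363, 389, 396 and 296 after conditioning (change 0.07, interval -0.27 to 0.41). Psmg4 read 6.64, 12.1, 6.05 and 3.22 in controls and 12.4, 22.5, 8.20 and 3.84 after conditioning, and Psmg1 was 57.1 ± 14.7 and 50.4 ± 4.66 (SD, n = 4). Of 10 proteasome-associated genes 8 lay higher and 2 lower.

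Psmf1, which encodes an inhibitor of the proteasome, had the smallest p of that list. It read 129, 119.5, 111 and 150 in controls and 160.2, 182, 156 and 131 after conditioning. Conditioned replicate 4 lay within the range of the controls and the other conditioned samples above it (change 0.30, interval -0.09 to 0.70, limma adjusted p = 0.9998, unadjusted p = 0.121). The proteasome-bound deubiquitinase Usp14 was 761 ± 147 and 827 ± 148, its counterpart Uchl5 229 ± 38.4 and 203 ± 57.2, and the ubiquitin receptor Adrm1 42.1 ± 12.7 and 46.7 ± 18.3 (SD, n = 4). These differences were smaller than the spread between replicates.

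Nfe2l1, the transcription factor that restores proteasome genes after inhibition, read 1136, 1331, 975.1 and 1059 in controls and 1404, 1312, 1226 and 910 after conditioning. It changed by 0.10 (interval -0.25 to 0.45), and its list had 5 of 7 genes higher, with a median of 0.10. In the same list Nfyc was 88.6 ± 9.68 and 70.8 ± 15.6 and Nfe2l2 115 ± 39.0 and 89.6 ± 29.5. Ubb, a polyubiquitin gene, was 339 ± 71.8 in controls and 361 ± 86.4 after conditioning. Of the 6 ubiquitin and activating enzyme genes 3 lay higher and 3 lower, among them Uba6 at 195 ± 21.3 and 219.8 ± 67.3 (SD, n = 4).

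Of 9 shuttle and segregase genes 7 lay higher and 2 lower. Vcp, the ATPase that pulls ubiquitinated proteins out of complexes, read 312, 328, 236 and 447 in controls and 358, 371, 504 and 372 after conditioning (change 0.30, interval -0.13 to 0.73). The shuttle gene Ubqln2 was 903 ± 89.9 and 985 ± 61.3 (SD, n = 4, change 0.13).

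The range over the 8 samples differed among the members, and the 5 widest ranges belonged to members of high GC content. Among the 36 members with a mean value of at least 50, a set defined after the values had been seen, the widest range over the 8 samples belonged to Psmd3, a lid subunit. It read 276, 305, 130.1 and 161 in controls and 374, 385, 176 and 92.1 after conditioning, a 4.18-fold range. In both groups replicates 1 and 2 were high and replicates 3 and 4 low. Psmb5 (3.49-fold), Psmb6 (2.64-fold), the ubiquitin receptor Psmd4 (2.45-fold) and the ATPase Psmc3 (2.31-fold) came next, and in each conditioned replicate 4 was the lowest of the 8 samples and replicates 1 and 2 were the highest of the conditioned ones. Psmd4 read 234, 298, 161 and 220.5 in controls and 269, 308, 223 and 126 after conditioning. These 5 genes had transcripts of 54.4% to 58.3% GC, where the median of the 36 was 49.4%. The ranking did not follow GC content throughout. Psmd10, at 42.3% GC, was the next widest (1.96-fold), and Psmd8, at 52.6% GC, spanned 1.39-fold. Psmb10, below that level with a mean of 48.2, had 56.5% GC and a range of 11.9-fold.

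Some members of lower GC content showed the opposite order of samples. Psma6 (46.6% GC) read 333, 305, 456 and 536 in controls and 294, 345, 459 and 442 after conditioning, and Psmd6 (47.1% GC) read 277, 257, 355 and 426 and then 272, 272, 424 and 389. For both genes replicates 3 and 4 lay above replicates 1 and 2 in each group. Psmc6, with the lowest GC content at 37.0%, read 406, 352, 468 and 475 in controls and 370.1, 318, 482 and 469 after conditioning. Its promoter window holds TGACNNNGC, as do those of Psmb5, Psmb6, Psmd12, Psmd9 and Psme4. A link of this motif to the order of samples was not tested. Replicates 3 and 4 were the higher samples of Psmc6 in each group. They were the lower ones of Psmb5 in each group and of Psmb6 in the conditioned group. Psme1 was an exception among the GC-rich members, with 54.9% GC and a range of 1.42-fold. Psmd11 (47.9% GC), below the median, differed from this order in controls only, with 135, 144, 121 and 126. After conditioning it read 115, 123, 127 and 153.5, so replicates 3 and 4 were again the higher samples.

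**Figure D4:**
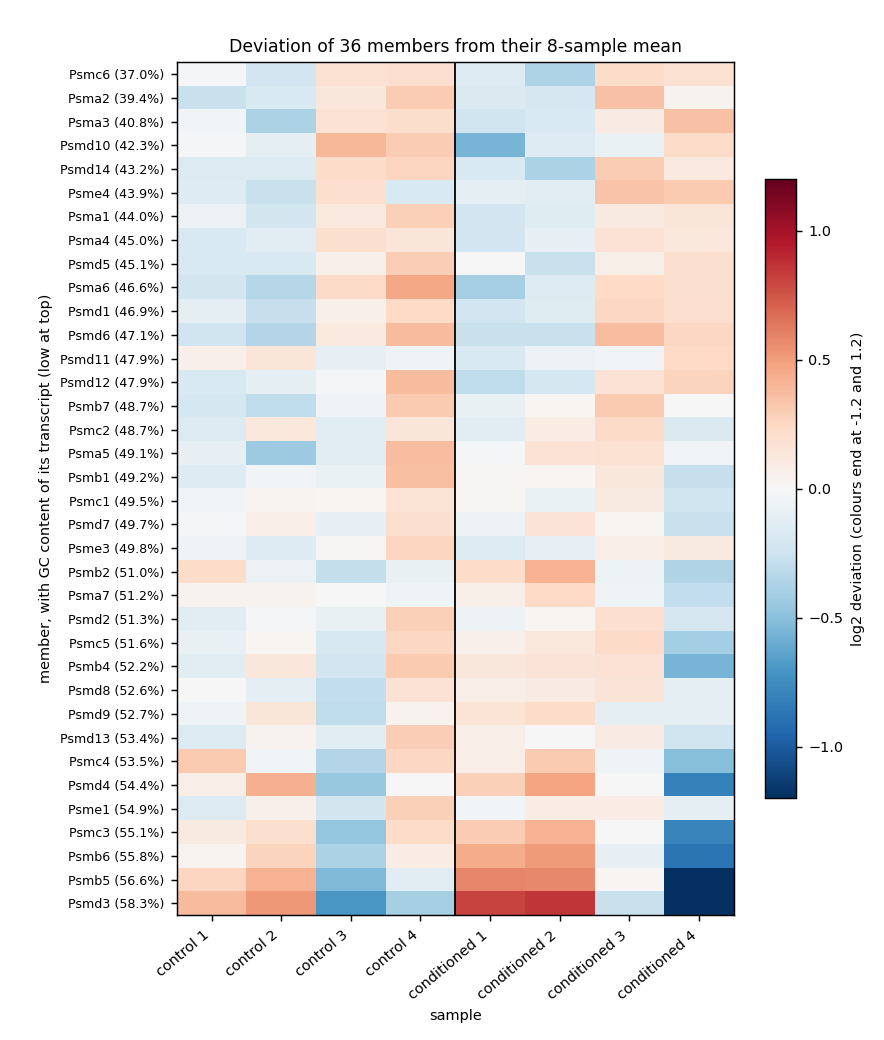
Log2 deviation of each of 36 members (rows, sorted by the GC content of the transcript in percent, low at the top) from its mean over the 8 samples (columns, with a line between context controls and conditioned samples). The members of highest GC content at the bottom, Psmb5 and Psmd3, are red in replicates 1 and 2 of both groups and blue in context control replicate 3 and conditioned replicate 4.

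Over these 36 members, the Spearman correlation of GC content with the deviation from the mean was 0.513, 0.772, -0.919 and -0.318 in context control replicates 1 to 4. It was 0.845, 0.864, -0.552 and -0.835 in the conditioned replicates. Over the 8671 genes of that level with a GC value, the coefficients were 0.439, 0.625, -0.615 and -0.252, and 0.667, 0.73, -0.37 and -0.809. These describe members and genes within a sample, which share the library and are not independent replicates, so no p is given. The sign was the same for the members and for all genes in each of the 8 samples. The labels give no batch or date, and the cause was not tested.

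**Figure D5:**
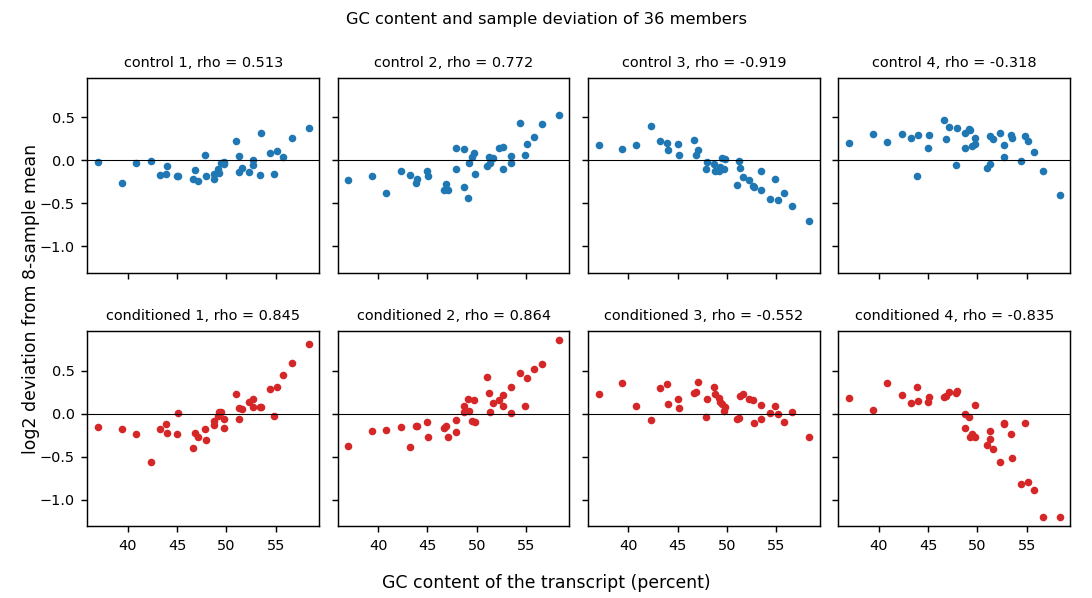
Log2 deviation of 36 members from their 8-sample mean against the GC content of the transcript (percent), one panel per sample, with the Spearman rho in each title. The slope is upward in replicates 1 and 2 of both groups and downward in replicates 3 and 4.

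Subtraction of a smooth curve on GC content from each sample, chosen after the values had been seen, gave a smaller spread for these genes. The SD of the log2 value within groups was 0.81 before and 0.322 after it for Psmd3, 0.667 and 0.302 for Psmb5, and 0.496 and 0.203 for Psmb6. Over the 34 members with a mean of at least 100 its median was 0.24 before and 0.188 after, and over all 6532 genes of that level 0.265 and 0.191. It rose for some members, such as Psme1 (0.177 and 0.270). The correction did not remove the correlation with GC content over the 36 members. This was then 0.022, 0.277, -0.46 and -0.082 in controls and 0.247, 0.313, -0.097 and -0.27 after conditioning. No member passed the threshold after this correction (0 at an unadjusted p under 0.05, against 5.6% of all genes, 824 in number). Psme2 then changed by -0.63 and Psmd10 by -0.31, with unadjusted limma p of 0.0541 and 0.0609.

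The particles were also compared from sample to sample. The median deviation of the 14 constitutive core genes was -0.09, -0.10, -0.06 and 0.25 in controls and -0.0022, 0.09, 0.12 and -0.16 after conditioning. For the 17 regulatory particle genes it was -0.04, 0.02, -0.10 and 0.22, and -0.06, 0.02, 0.15 and -0.20. Context control replicate 4 was the highest for both particles and conditioned replicate 4 the lowest. The classes of a particle did not share this low level in conditioned replicate 4. The median was -0.88 for the constitutive catalytic, -0.46 for the other beta and 0.13 for the alpha subunits. The median was -0.32 for the base ATPases, -0.20 for the other base subunits and 0.008 for the lid. Without context control replicate 4 the median change of all 43 members was 0.07, without conditioned replicate 4 it was 0.06, and without conditioned replicate 1 it was 0.0083, against -0.01 with all samples. It was -0.06 without conditioned replicate 3, -0.04 without context control replicate 1 and -0.03 without context control replicate 3.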

How the data were processed

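Total RNA from 8 samples was sequenced, and groups and replicate numbers were taken from the titles. Per the submitters' processing notes, TopHat and HTSeq were used, without versions, and the build named is hg19, although the samples are mouse. For the annotation, strand setting and scaling factor, the sources used here give nothing. Reads of overlapping or antisense genes therefore cannot be separated. The deposited values are named FPKM but are a scaled read signal: every column had a step (0.831 to 1.61) of which 100% of its nonzero entries were integer multiples, within 0.01 of a read. Division by the step recovered 1992452 to 3565356 reads per sample. Within groups, pairs of libraries differed by a chi-square per degree of freedom of 2.5 to 23.6, so none was a copy of another.

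Values were transformed to log2(value + 1), which understates changes of low genes. The 14704 genes with a mean of at least 1 were tested in limma 3.58.1 (R 4.3.3; lmFit, eBayes with trend), two-sided, with Benjamini-Hochberg adjustment over all of them and a threshold of 0.05. The design assumed FPKM and limma was kept for the scaled signal. Alternatives were edgeR 4.0.16 and DESeq2 1.42.0 on recovered reads, other pseudocounts, filters and scalings, array weights, a replicate block, each sample left out in turn, and, chosen after the values were seen, GC correction (lowess, span 0.3, fitted where the mean log2 value exceeded 5). The fits were tested on simulated data. GC content came from the longest coding GENCODE vM21 transcript and was found for 43 of 43 tested members and 98.8% of tested genes.

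The members and lists were chosen with earlier results of these data known. Values in every sample are given for the catalytic pairs, Psmd14, the activators, the 2 members of each class with the smallest p, and, of each pathway list, the 2 genes with the smallest p and Nfe2l1, Pomp, Adrm1, Usp14, Uchl5 and Ubb as values or means. The result for 1 further gene of these lists is not reported here. Psmd3, Psmd4, Psmc3, Psma6, Psmd6, Psmc6, Psmd11, Tap1 and Tap2 were named after their values were seen.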

Additional observations from a re-analysis of the deposited data

Results flagged for a closer look

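In 3 of 90 groups of 4 samples (42 members and 3 ratios in both groups), 1 sample lay far from the other 3 relative to the range of its group, by Dixon's criterion on the log2 scale. Chance alone flags about 1 in 20 such groups. Psmb4, a beta ring subunit without a catalytic site, read 257 in fear conditioning replicate 4 and 416 to 426 in the other conditioned samples. Psmc3, an ATPase of the base, read 319.6 in context control replicate 3, where the remaining controls lay at 477 to 515. Psmb11, the thymic subunit, read 1.66 in context control replicate 1, on 2 reads, and 0 in the other controls. Psmb4 and Psmc3 have transcripts of 52.2% and 55.1% GC, and the samples in question had the most negative correlations of GC content with deviation in their groups (-0.835 and -0.919). The cause was not tested.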

How the results depend on the processing

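No member passed the threshold under any of 21 alternatives (smallest adjusted p 0.828), and the median log2 change of the members lay between -0.07 and 0.07. It was -0.06 to 0.14 for the core particle and -0.08 to 0.05 for the regulatory particle. Of 899 values of single members under alternatives, 134 had another sign than the reported one and 1 moved by more than the spread between replicates, Psmb11 at a pseudocount of 0.1 (2.45). Psme2 lay between -0.79 and -0.48 and Psmb8 between -1.17 and -0.54. Psme2 reached an unadjusted p of 0.0313 without context control replicate 2 and Psmb8 0.0478 without fear conditioning replicate 1, with adjusted p of 0.9989 and 0.9999 in limma. With single samples left out, 0 to 1 genes of all passed, the 1 without fear conditioning replicate 4. The ratio of Psmb9 to Psmb6 then lay between -0.0471 and 1.001, that of Psmb10 to Psmb7 between -1.129 and 0.0014, and that of Psmb8 to Psmb5 between -1.17 and -0.62.

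With the replicate number as a block, 0 genes and 0 members passed, and the exact sign-flip test of the paired ratios gave p = 0.125, 0.375 and 0.5 for Psmb8, Psmb9 and Psmb10 against their counterparts. The smallest p that 4 pairs can give is 0.125, so this test could not pass, and the differences of Psmb8 to Psmb5 were negative in 4 of 4 same-numbered pairs. The labels do not say that the numbers pair samples, and 1 of the 4 correlations was under 0.1: the deviations of same-numbered samples correlated by 0.069 to 0.249, and 1 of 8 samples correlated best with its own number. The sign of the GC correlation was nonetheless shared by same-numbered samples in both groups. Depth limits the rare members, since Psmb8, Psmb9, Psmb11, Psma8 and Psmc3ip rest on 2 to 27 reads per group.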
